A study of Homo sapiens with 26 samples.

Results

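Ribosome footprints of 9 genes of the HLA class I antigen presentation pathway were followed in 3 human cell lines. They were taken by name from the 19478 coding transcripts that each table lists, and each symbol was on 1 transcript. These are the heavy chain genes HLA-B, HLA-C and HLA-E, the light chain gene B2M, the peptide transporter genes TAP1 and TAP2, the loading chaperone gene TAPBP, the trimming peptidase gene ERAP1 and the regulator gene NLRC5. The other classical heavy chain gene was not analysed here. HEK293T and HEK293FT are derivatives of a human embryonic kidney line that carry the SV40 large T antigen, and K562 is an erythroid leukaemia line. All libraries came from cells lysed with cycloheximide and digested with RNase I, so each count is a fragment of mRNA that a ribosome protected. A footprint level combines the amount of an mRNA with how often it is translated, and in a bulk lysate fewer cells and fewer footprints per cell cannot be told apart.

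The 26 libraries lie in 4 tables that differ in cell line, fragment length and the way ribosomal RNA was removed. The HEK293T table has 8 libraries of 15 to 35 nt fragments, with 2 libraries each of undepleted RNA, Ribo-Zero Gold, RiboCop and NEBNext. The HEK293FT table has 1 undepleted library and 1 depleted with custom oligos, both of 15 to 35 nt. The first K562 table, called K562 kits here, has 12 libraries of 20 to 34 nt: 2 each of undepleted RNA, FastSelect, riboPools and riboPools eluted cold, then 4 of Ribo-Zero Plus (plain, with added oligos, with formaldehyde, and with both). The second, called K562 sizes, has 1 undepleted and 1 NEBNext library at each of 20 to 34 and 20 to 60 nt. Its undepleted libraries were taken as such from their titles, although another of their labels names NEBNext. NEBNext and Ribo-Zero Plus digest ribosomal RNA with RNase H after DNA probes bind it, while the other kits pull it out or block it. Nothing in the labels says that libraries of a group came from separate cultures, so their spread may be technical.

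Class I molecules show peptides from inside the cell to CD8+ T cells. A heavy chain pairs with beta-2-microglobulin, the product of B2M, in the endoplasmic reticulum, where TAP1 and TAP2 pump in peptides, ERAP1 trims them and tapasin, the product of TAPBP, holds the empty heavy chain at the transporter. HLA-E is a non-classical heavy chain that mainly presents leader peptides of other heavy chains to receptors of natural killer cells. K562 is used as a natural killer cell target because it has little or no HLA class I at its surface. NLRC5 is a transactivator that acts, through RFX proteins, on X and Y boxes shared by class I promoters, and interferon response elements and NF-kB sites lie nearby.

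The promoters of the classical heavy chain genes and B2M are shown because their footprints went in opposite directions in the comparison of the lines. They are the 250 bases before the RefSeq start of each gene (GRCh38.p14), 5′ to 3′ on the gene's strand, with matches to 4 motifs in capitals. They come from chr6:31357180-31357429 (minus strand, HLA-B), chr6:31272093-31272342 (minus strand, HLA-C) and chr15:44711267-44711516 (plus strand, B2M).
HLA-B: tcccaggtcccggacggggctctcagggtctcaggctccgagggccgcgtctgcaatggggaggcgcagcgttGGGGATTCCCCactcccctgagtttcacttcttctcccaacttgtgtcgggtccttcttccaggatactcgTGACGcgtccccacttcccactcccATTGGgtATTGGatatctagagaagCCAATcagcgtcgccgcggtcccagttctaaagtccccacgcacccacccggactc
HLA-C: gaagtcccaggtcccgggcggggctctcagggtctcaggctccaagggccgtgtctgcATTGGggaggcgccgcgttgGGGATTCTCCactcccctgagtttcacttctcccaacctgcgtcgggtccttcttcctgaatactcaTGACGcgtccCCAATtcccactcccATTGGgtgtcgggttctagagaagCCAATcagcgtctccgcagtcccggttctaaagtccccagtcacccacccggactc
B2M: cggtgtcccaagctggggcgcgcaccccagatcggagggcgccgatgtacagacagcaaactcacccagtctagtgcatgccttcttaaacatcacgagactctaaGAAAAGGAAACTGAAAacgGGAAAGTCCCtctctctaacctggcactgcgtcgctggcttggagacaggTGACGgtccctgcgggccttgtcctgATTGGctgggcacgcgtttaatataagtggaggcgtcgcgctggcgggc
The motifs searched on both strands were TGACG (the core of the X2 box), CCAAT (the Y box, ATTGG on the other strand), GAAA followed by any 2 bases and GAAA (the interferon-stimulated response element, ISRE) and the NF-kB consensus. All 3 promoters held TGACG, a Y box and an NF-kB match, and their TGACG began 106, 105 and 75 bases before the start in HLA-B, HLA-C and B2M. Only B2M of these 3 held an exact match to the ISRE letters searched, in a pair of matches that overlap each other. Variants of these letters were not sought, so the lack of a match in HLA-B and HLA-C does not show that they lack an ISRE. Over 35116 promoter windows of the same length, TGACG was in 21.2%, CCAAT in 32%, the ISRE motif in 3.02% and the NF-kB consensus in 5.21%. Of the 9 genes, 7 had a promoter entry, and TAP1, TAP2 and TAPBP also held the ISRE motif. These matches describe letters and not occupied sites.

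In GENCODE 29 on GRCh38 the heavy chain transcripts lie in the HLA region of chromosome 6: HLA-B at chr6:31353872-31357187 (minus strand), HLA-C at chr6:31268749-31272086 (minus strand) and HLA-E at chr6:30489467-30494205 (plus strand). TAP1 (chr6:32845209-32853978), TAP2 (chr6:32821833-32838727) and TAPBP (chr6:33303573-33314212) lie in the same region on the minus strand, while B2M is at chr15:44711487-44718877, ERAP1 at chr5:96760810-96808100 and NLRC5 at chr16:56989498-57083524. All counts are in coding exons. Heavy chains resemble each other, so part of each coding sequence cannot name its gene: of the 28-base windows in the coding sequence, 21.4% of HLA-B, 21.9% of HLA-C and 22.1% of HLA-E also occur in another gene. The share was 2.21% in TAP1 and 2.74% in TAP2, and 0 in B2M, TAPBP, ERAP1 and NLRC5. How fragments that match several genes were counted is not given in the sources used here, so heavy chain counts may contain fragments of a relative. In TAP2, 98.7% of windows also lie in an overlapping annotated gene of the same locus.

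Library totals ran from 120019 to 421521 counts in HEK293T, from 900763 to 5747772 in HEK293FT, from 116742 to 5795774 in K562 kits and from 46858 to 441249 in K562 sizes. Levels are given as counts per 1000000 counts of the library total (CPM). A floor of 3 counts was set, which is 25 CPM in a library of 120019 counts. Values below the floor rest on fewer than 3 counts. Intervals are exact Poisson limits at 95%, or exact conditional limits for ratios, and cover counting error only. Of 11 erythroid markers, the summed CPM in undepleted libraries was 11023 to 11738 in K562 and 0 to 13.0 in HEK lines, where the globin genes and GATA1 were at 0. Of 5 markers of HEK293, it was 323 to 788 in HEK lines and 0 to 0.969 in K562. Of 5 markers of white blood cells, the sum was 26.3 to 85.4 in K562 and 0 to 1.11 in HEK lines, with CD14, CD3E and MS4A1 at 0 throughout.

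In K562 the classical heavy chains were nearly without footprints, while B2M and TAPBP had more footprints than in HEK lines and HLA-E, TAP1 and TAP2 overlapped between the lines. The main test compared the 2 K562 tables with the 2 HEK tables, undepleted counts summed within each table, with edgeR's quasi-likelihood test. It called 44.5% of 7576 genes at an adjusted p under 0.05, 20.5% higher and 24% lower in K562, so a call by itself is common here. That share was 19.7% with DESeq2, 19.2% without the K562 kits table, 27.7% without K562 sizes and 53.2% with all libraries of each table summed. Of the 9 genes, 7 could be tested: B2M, TAPBP and ERAP1 were higher in K562, HLA-B and HLA-C were lower, and HLA-E and TAP2 were not called. TAP1 and NLRC5 had too few counts. The median log2 difference of the 7 was 0.46, against -0.05 for all genes, a description only, since 3 of them passed the filter on low counts (at least 17.0 CPM in 2 tables) through 1 line alone. HLA-B and HLA-C passed through the HEK tables and TAPBP through the K562 tables, so these had to differ, and ERAP1 reached that level in both K562 tables and 1 HEK table. The HEK tables hold 15 to 35 nt fragments and every K562 library starts at 20 nt, so fragment window and line cannot be told apart. Line and experiment cannot be told apart within a single pair of tables, and they are separated here only as far as 2 tables on each side allow.

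**Figure D1:**
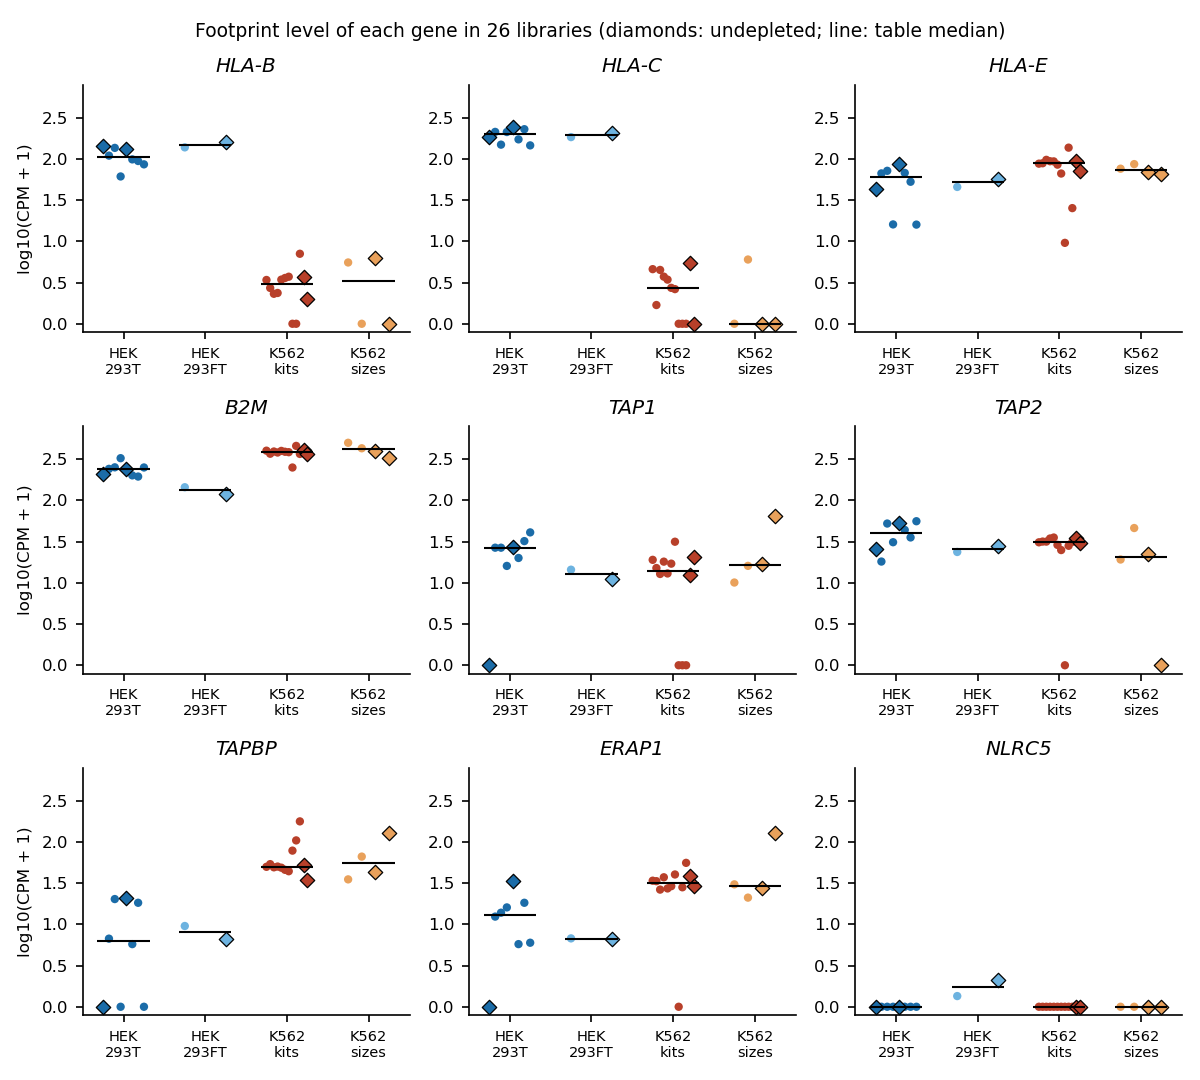
Level of each gene in all 26 libraries, as log10(CPM + 1), by table; diamonds are undepleted libraries, circles depleted ones and the line is the table's median. HLA-B and HLA-C sit near 2 in the HEK tables and below 1 in the K562 tables, TAPBP lies higher in K562, and NLRC5 is at 0 except in HEK293FT.

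HLA-B, a classical heavy chain that presents peptides to T cells, had 142 and 130 CPM in the undepleted HEK293T libraries (17 and 20 counts) and 157 CPM in undepleted HEK293FT (141 counts). In the undepleted K562 kits libraries it had 2.64 and 0.969 CPM, which are 3 counts and 1 count, and in K562 sizes 1 count and 0 counts. The HEK values were all far above the K562 values. Against K562 kits, HLA-B was 73.3-fold higher in HEK293T (26.3 to 283) and 84.8-fold higher in HEK293FT (32.4 to 316). Over all 16 K562 libraries, 60 counts were found, 4 libraries were at 0 and the highest reached 6.05 CPM, while the 10 HEK libraries ran from 60.0 to 157 CPM. One of those at 0, the undepleted 20 to 60 nt library, is too shallow to place below the HEK range, since its 46858 counts allow up to 78.7 CPM. With tables as units the log2 difference was -5.98 ± 0.45 (SE; adjusted p 1.55e-17), and -4.97 without the K562 kits table. HLA-B entered this test through the HEK tables only, so its adjusted p adds no support to the difference.

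HLA-C, the other classical heavy chain measured and also a ligand of inhibitory natural killer cell receptors, behaved like HLA-B. It had 183 and 241 CPM in undepleted HEK293T and 205 CPM in undepleted HEK293FT. In K562 kits it had 4.4 and 0 CPM (5 and 0 counts), and both undepleted K562 sizes libraries were at 0. The ratio to K562 kits was 93.5 in HEK293T (37.9 to 299) and 89.0 in HEK293FT (37.5 to 277). Against K562 sizes, with the floor of 3 counts over the group, HLA-C was at least 17.1-fold higher in HEK293T and at least 16.2-fold higher in HEK293FT. All 16 K562 libraries gave 60 counts together, 7 were at 0 and the highest reached 5.01 CPM, against 144 to 241 CPM in the 10 HEK libraries. The fitted log2 difference was -6.50 ± 0.41 (SE; adjusted p 9.74e-21), and since K562 sizes is at 0 its size depends on the prior count of the fit (-9.59 without the K562 kits table). HLA-C too entered this test through the HEK tables only, so its adjusted p adds no support.

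HLA-E did not follow the classical heavy chains. It had 41.7 and 84.7 CPM in undepleted HEK293T, 56.6 CPM in HEK293FT, 92.5 and 70.7 CPM in K562 kits, and 68.3 and 64.0 CPM in K562 sizes. The lines overlapped. With tables as units the log2 difference was 0.46 ± 0.29 (SE; adjusted p 0.197), and the ratio of K562 kits to HEK293T was 1.25 (0.767 to 2.15). Against HEK293FT alone K562 kits was 1.45-fold higher (1.06 to 2.02). That fit called it higher (log2 0.52 ± 0.23 SE, adjusted p 0.0373), a call that was lost without K562 kits undepleted replicate 1 (0.325), with DESeq2 (0.541), without the filter on low counts (0.0557) and with all 26 libraries in 1 fit (0.0843). With all libraries of each table summed, the difference with tables as units was called at log2 1.0 (adjusted p 0.000815), and without the HEK293T table at 0.58 (0.0437).

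B2M, the light chain that every class I heavy chain needs, was higher in K562. It had 208 and 241 CPM in undepleted HEK293T, 119 CPM in HEK293FT, 404 and 361 CPM in K562 kits, and 399 and 320 CPM in K562 sizes. As CPM the undepleted K562 values were above the undepleted HEK values, a description only. How many of all genes separate this way was not counted, and 44.5% of 7576 genes were called with tables as units. The lowest of these K562 values, 320 CPM, rests on 15 counts. Its limits (179 to 528 CPM) overlap those of HEK293T undepleted replicate 2 (170 to 332 CPM). The log2 difference with tables as units was 1.35 ± 0.22 (SE; adjusted p 5.83e-07). K562 kits was 1.69-fold above HEK293T (1.31 to 2.23) and 3.23-fold above HEK293FT (2.64 to 3.99). Over all libraries the median was 387 CPM in K562 (248 to 496) and 224 CPM in HEK lines (119 to 323). The lowest K562 value, in Ribo-Zero Plus with formaldehyde, and the highest HEK value, in HEK293T NEBNext replicate 1, overlapped.

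The balance of the chains therefore differed between the lines. Per kilobase of coding sequence, B2M was 1.66 times the sum of HLA-B, HLA-C and HLA-E in undepleted HEK293T and 0.867 times in HEK293FT, but 13.4 times in K562 kits and 16.1 times in K562 sizes. In single libraries this ratio ran from 0.867 to 3.47 in the 10 HEK libraries and from 10.1 to 87.2 in the 16 K562 libraries, so the lines did not overlap. The 2 highest, 87.2 and 36.2, were the Ribo-Zero Plus libraries with formaldehyde, where the 3 heavy chains had only 1 and 5 counts. HLA-E made up 16% and 13.7% of the heavy chain footprints per kilobase in undepleted HEK293T and HEK293FT, and 95.3% and 94.2% in K562 kits and K562 sizes. HLA-C was the most abundant of the 3 in the HEK lines, at 51.4% and 48.7%. These shares leave out heavy chain genes not among the 3.

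**Figure D2:**
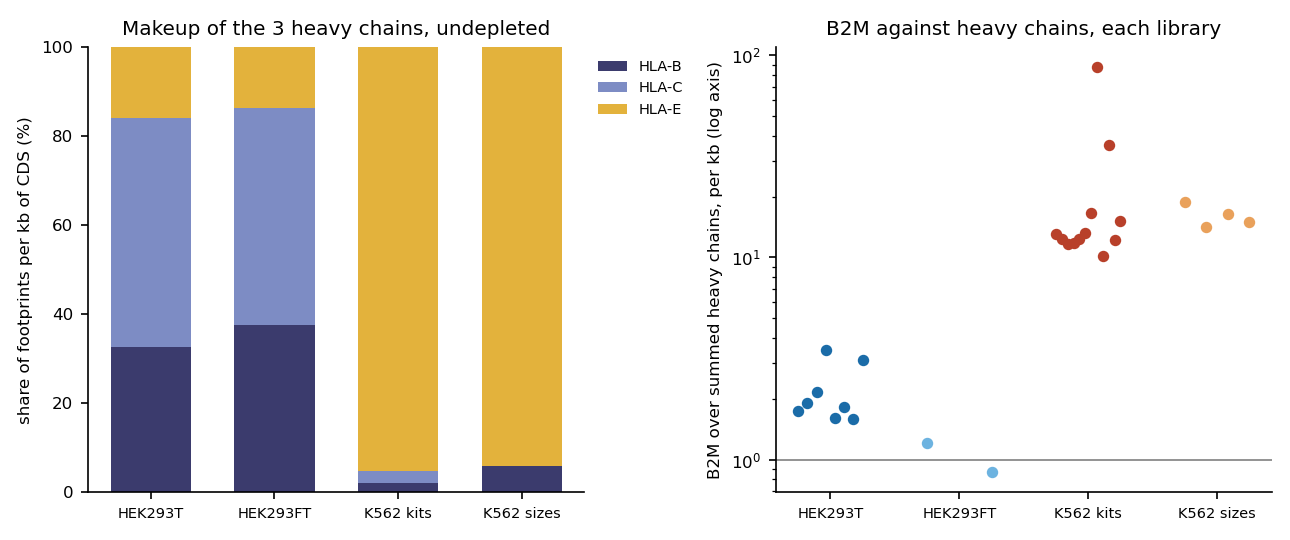
Left, share of HLA-B, HLA-C and HLA-E in their summed footprints per kilobase of coding sequence, undepleted counts pooled by table, in percent; right, B2M over that sum in each library on a log axis, with a line at 1. HLA-E takes over 94% of the bar in both K562 tables, and the K562 points lie above 10 while the HEK points lie below 3.5.

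The transporter subunits did not separate the lines. TAP1 had 0 and 26.1 CPM in undepleted HEK293T, 9.99 CPM in HEK293FT, 11.4 and 19.4 CPM in K562 kits, and 15.8 and 64.0 CPM in K562 sizes, of which the last is 3 counts. Its ratio of K562 kits to HEK293T was 1.04, with limits of 0.370 and 4.04 that allow a wide range either way. TAP2 had 25 and 52.1 CPM in HEK293T, 26.6 CPM in HEK293FT, 33.5 and 29.1 CPM in K562 kits, and 21.0 and 0 CPM in K562 sizes. Both genes overlapped between the lines. For TAP2 the log2 difference with tables as units was -0.02 ± 0.39 (SE; adjusted p 0.969).

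TAPBP had a higher CPM in every K562 library than in any HEK library, though not always beyond counting error. The limits of the undepleted HEK293T libraries reach 30.7 and 57.1 CPM, while those of K562 kits undepleted replicate 2 are 22.8 to 46.0 CPM. It had 0 and 19.5 CPM in undepleted HEK293T and 5.55 CPM in HEK293FT, against 52.0 and 32.9 CPM in K562 kits and 42.1 and 128 CPM in K562 sizes. Across all libraries the 16 of K562 ran from 32.9 to 176 CPM and the 10 of the HEK lines from 0 to 19.5 CPM. The log2 difference with tables as units was 2.78 ± 0.49 (SE; adjusted p 3.82e-06), and 2.16 without the HEK293FT table. TAPBP entered this test through the K562 tables only, so its adjusted p adds no support to the difference. In the fits against a single HEK table it entered through the K562 20 to 60 nt library alone, so its calls there add no support either. Counts in the HEK lines were few: K562 kits was 7.73-fold above HEK293FT (3.20 to 24.4; 5 counts in HEK293FT) and 3.91-fold above HEK293T (1.30 to 19.3; 3 counts). The call against HEK293T alone (adjusted p 0.0117) was lost with DESeq2 (0.144) and without undepleted replicate 1 of either HEK293T (0.153) or K562 kits (0.193).

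ERAP1, the peptidase that trims peptides to the length that class I binds, had 0 and 32.6 CPM in undepleted HEK293T and 5.55 CPM in HEK293FT, against 37.0 and 28.1 CPM in K562 kits and 26.3 and 128 CPM in K562 sizes. The second HEK293T library lay within the K562 range. In the fits against a single HEK table, only the K562 sizes value of 128 CPM (6 counts) took ERAP1 past the filter on low counts. Its calls in those fits therefore add no support to a difference. With tables as units the log2 difference was 2.06 ± 0.49 (SE; adjusted p 0.00044). The call was lost with DESeq2 (0.0729), without the K562 kits table (0.119) and without the HEK293FT table (log2 1.06, 0.178). ERAP1 was called against HEK293FT (log2 2.49 ± 0.59 SE, adjusted p 7.08e-05; 0.0764 with DESeq2) and not against HEK293T (adjusted p 0.256).

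NLRC5 had no counts in any of the 16 K562 and 8 HEK293T libraries, and 1 and 2 counts in the HEK293FT libraries. Over the undepleted libraries the floor of 3 counts lies at 1.38 CPM in K562 kits, 12.7 in K562 sizes and 11.0 in HEK293T. A difference in NLRC5 was not detectable in the undepleted libraries. All K562 kits libraries together held 26682990 counts and none of NLRC5, and a difference over all libraries was not tested.

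Of the 8 members that averaged 10 counts or more per library, 3 did not overlap between all 16 K562 and all 10 HEK libraries: HLA-B and HLA-C lower and TAPBP higher in K562. Over all 8892 genes at or above that average, 12.6% did not overlap, a share not split by direction. These 3 members met the average only through the line where they were high. HLA-B had 1114 counts in HEK and 60 in K562 libraries, HLA-C 1582 and 60, and TAPBP 69 and 1333. The count of 3 is therefore a description and adds no support to a difference. Tested one HEK table at a time, K562 kits differed from HEK293T in 4 of the 7 genes tested (background 45.5% of 5551 genes) and from HEK293FT in 6 of 7 (61.6%). The fitted log2 differences were -5.91 ± 0.53 and -6.25 ± 0.36 for HLA-B, -6.29 ± 0.43 and -6.35 ± 0.32 for HLA-C, 0.87 ± 0.18 and 1.67 ± 0.14 for B2M, and 2.05 ± 0.72 and 2.88 ± 0.53 for TAPBP (SE; HEK293T first, then HEK293FT). These fits share the K562 libraries, and their sizes rest on few counts. They kept a gene on its level in a single undepleted library. HLA-B and HLA-C reached that level only in HEK libraries, and TAPBP, ERAP1 and TAP1 only in the K562 20 to 60 nt library. HLA-E and B2M reached it in both lines. The calls of members that entered through 1 line, and the counts of 4 and 6 of 7, therefore add no support to a difference. Without K562 kits undepleted replicate 1 the HLA-C differences were -9.33 and -9.39, and without replicate 2 they were -5.37 and -5.43, in the same order. HLA-B moved to -6.58 and -6.92 without replicate 1 of K562 kits. TAPBP against HEK293T was 1.35 without HEK293T undepleted replicate 1 and 7.65 without replicate 2, which holds its only 3 undepleted HEK293T counts.

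**Figure D3:**
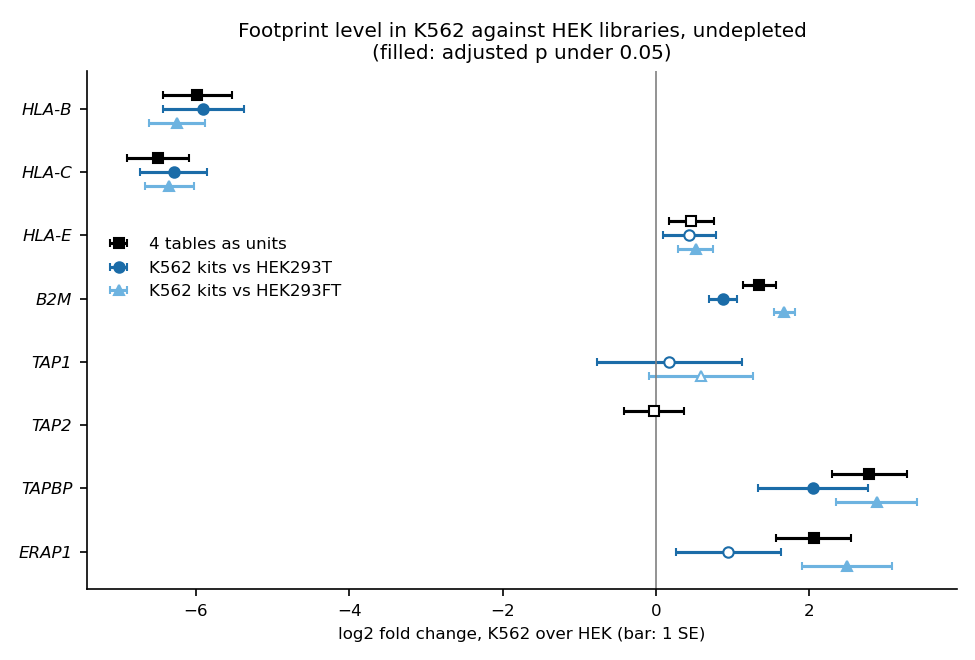
Log2 difference of K562 over HEK for each gene tested, with 1 SE, for the fit with 4 tables as units (squares), K562 kits against HEK293T (circles) and K562 kits against HEK293FT (triangles); filled symbols have an adjusted p under 0.05. HLA-B and HLA-C lie near -6 in all 3 fits, HLA-E, TAP1 and TAP2 near 0, and B2M and TAPBP to the right of 0.

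Ranked per kilobase of coding sequence, the order of levels changed mainly through the classical heavy chains. In undepleted HEK293T the order was B2M at 635 CPM per kilobase, HLA-C at 196, HLA-B at 125, HLA-E at 61.3, TAP2 at 20.5, TAPBP at 7.26, ERAP1 at 6.43, TAP1 at 6.03 and NLRC5 at 0. Only the step from B2M to HLA-C was larger than the counting limits of the neighbours in that order. In undepleted K562 kits it was B2M at 1075, HLA-E at 76.5, TAPBP at 28.4, TAP2 at 16, ERAP1 at 11.5, TAP1 at 6.28, HLA-C at 2.10, HLA-B at 1.70 and NLRC5 at 0. There TAP2 and ERAP1, TAP1 and HLA-C, and HLA-C and HLA-B overlapped with their neighbour, and the other steps exceeded the counting limits. HEK293FT and K562 sizes had the same genes in the top 2 places as HEK293T and K562 kits.

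Further comparisons show how far tables differ without a change from HEK to K562. K562 sizes against K562 kits, the same line in another experiment, had 0.198% of 5551 genes called and 0 of 7 of these genes, with 0 at an unadjusted p under 0.05 and 0 by DESeq2. The low share called does not show that these tables differ little. The log2 differences of all genes had a standard deviation of 1.13, against 0.742 for HEK293FT against HEK293T. For HLA-B and HLA-C the fit of the K562 tables could not show a difference at this depth, with standard errors of 3.50 and 3.70 on the log2 scale. The B2M ratio of K562 sizes to K562 kits was 1.0 (0.796 to 1.24). HEK293FT against HEK293T had 8.02% of genes called (2.9% lower) and 1 of the 7 genes: B2M was lower in HEK293FT (log2 -0.80 ± 0.25 SE, adjusted p 0.0193). That call was lost with DESeq2 (0.0503), without the filter on low counts (0.0917), without HEK293T undepleted replicate 1 (0.102) or 2 (0.458) and without K562 kits undepleted replicate 2 (0.0541). The share of genes called fell too, to 2.77% with DESeq2, 2.74% without the filter, 3.02% without HEK293T replicate 1, 2.55% without its replicate 2 and 4.85% without K562 kits replicate 2. For the classical heavy chains, HEK293FT over HEK293T was 1.16 (0.801 to 1.71) in HLA-B and 0.952 (0.707 to 1.30) in HLA-C.

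Depletion kits were compared with undepleted RNA of the same table, and HLA-E had the largest fitted difference of the 4 members tested under NEBNext in HEK293T. It had 15.0 and 14.9 CPM in HEK293T (2 and 3 counts), below the 6 other HEK293T libraries, which ran from 41.7 to 84.7 CPM. HEK293T NEBNext called 3.24% of 4410 genes and 0 of the 4 members tested by edgeR, with 2 at an unadjusted p under 0.05 and 0 by DESeq2. Those were HLA-E (log2 -2.08 ± 0.69 SE, adjusted p 0.0645) and HLA-B (-0.84 ± 0.37 SE, adjusted p 0.241), the latter with 60.0 and 84.5 CPM. Without undepleted replicate 1, HLA-E was called (log2 -2.45, adjusted p 0.0392). In K562 sizes, where NEBNext called 2.72% of 3715 genes and 0 of 3 members (0 at an unadjusted p under 0.05 and 0 by DESeq2), HLA-E had 74.8 and 85.1 CPM against 68.3 and 64.0 undepleted. The difference between the lines in the NEBNext effect on HLA-E, tested as an interaction after its values were seen, was log2 2.34 ± 0.80 (SE; p 0.00473, adjusted p 0.32 by edgeR). It did not pass the threshold.

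Ribo-Zero Gold called 0.068% and RiboCop 0% of the 4410 genes in HEK293T, and neither called any of the 4 members (0 at an unadjusted p under 0.05, 0 by DESeq2). In HEK293FT, which has 1 library a group and no test, custom oligos gave 136 CPM for HLA-B, 182 for HLA-C, 44.5 for HLA-E and 143 for B2M, against 157, 205, 56.6 and 119 undepleted. In K562 kits, FastSelect and both kinds of riboPools library each called 0% of 9628 genes and 0 of 6 members by edgeR, with 0 at an unadjusted p under 0.05 and 0 by DESeq2. Over those 6 libraries B2M ran from 365 to 398 CPM, HLA-E from 83.9 to 96.0 and TAPBP from 44.7 to 52.5, close to the undepleted pair.

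The Ribo-Zero Plus libraries stood apart and were shallow where oligos or formaldehyde were added, at 116742 to 184722 counts against 1840190 in the plain one. HLA-E had 65.2 CPM in the plain library, 135 with oligos, 8.57 with formaldehyde (1 count) and 24.2 with both. TAPBP had 42.9, 103, 77.1 and 176 CPM in the same order. The mean of the 4 against undepleted RNA called 14.9% of 9628 genes (1.49% higher and 13.4% lower), with a median log2 difference of -0.43 over all genes, and 2 of 6 members: TAPBP higher (log2 0.94 ± 0.25 SE, adjusted p 0.0273) and HLA-E lower (-1.19 ± 0.35 SE, adjusted p 0.0371). Both calls were lost when only the libraries of the 2 groups were fitted (0.386 and 0.344), and without K562 kits undepleted replicate 1 (0.0518 and 0.149) or 2 (0.145 and 0.0665). The HLA-E call was also lost with DESeq2 size factors (0.0643). TAP1 was at 0 in the 3 libraries with additives, each with a floor of 16.2 to 25.7 CPM, against 30.4 CPM (56 counts) in the plain library and 11.4 and 19.4 CPM undepleted. It was not called (unadjusted p 0.0172, adjusted p 0.0779), but it was called lower without the plain library (adjusted p 0.0125) and without the one with oligos and formaldehyde (0.0125). The background then was 35.4% and 34.8% of genes.

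**Figure D4:**
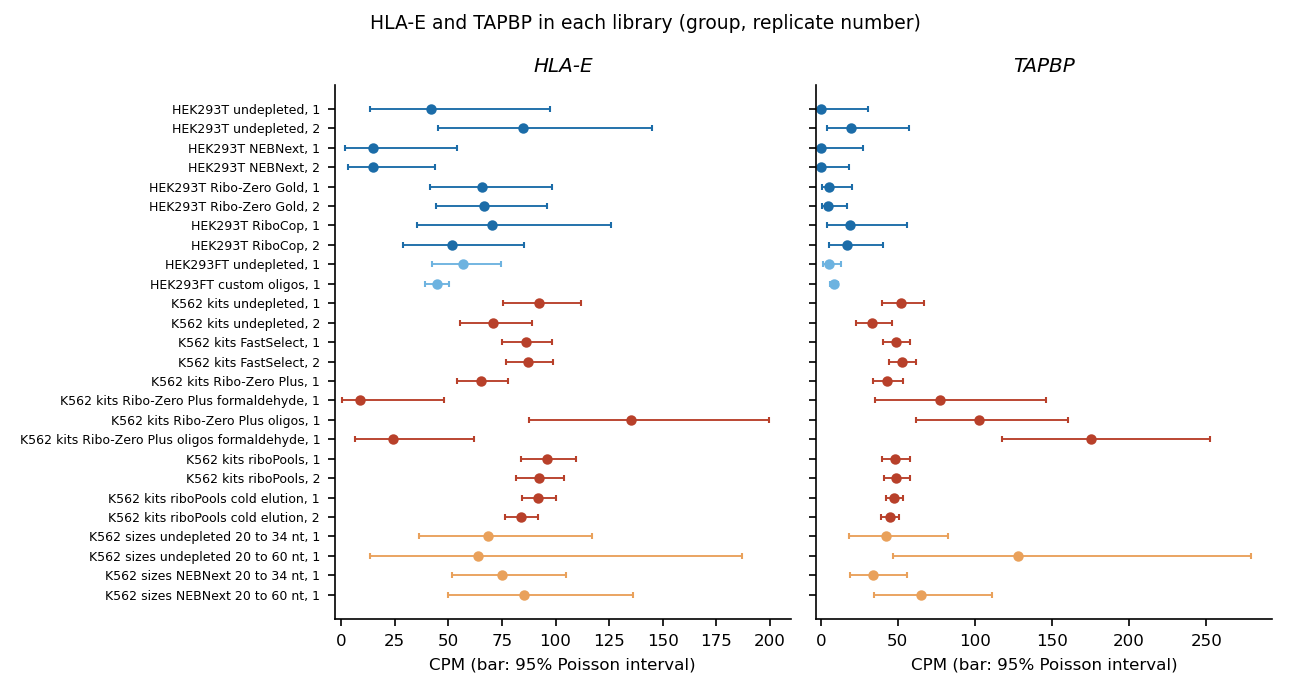
CPM of HLA-E and TAPBP in each library with 95% Poisson limits, coloured by table. HLA-E is lowest in the HEK293T NEBNext pair (15.0 and 14.9) and in the K562 Ribo-Zero Plus libraries with formaldehyde, and TAPBP reaches 176 CPM in Ribo-Zero Plus with oligos and formaldehyde.

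Other genes of the pathway were counted from fixed lists in the fit with tables as units. That fit called 44.5% of 7576 genes, 20.5% higher and 24% lower in K562. A count near these shares is no result about a list. Of 5 further loading and chaperone genes, 3 could be tested and 1, PDIA3, an oxidoreductase of the loading complex, was higher in K562 (log2 0.56, adjusted p 0.0289). CALR, encoding calreticulin, and CANX, encoding calnexin, had log2 differences of 0.39 and 0.13 that were not called, while TAPBPL had no undepleted counts and ERAP2 had 1. The PDIA3 call was lost with DESeq2 (0.237), with total count scaling (0.166) and without any of 3 tables (K562 sizes 0.201, K562 kits 0.331, HEK293FT 0.493). The median of the 3 was 0.39, against -0.05 for all genes.

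Of the 5 immunoproteasome and activator genes 3 were tested and 1, PSMB10, was higher (log2 1.45, adjusted p 0.00818; lost with DESeq2 at 0.252 and without the K562 sizes table at 0.0557). Over all genes 20.5% were called higher. The interferon-inducible subunits PSMB8 and PSMB9 had at most 6 undepleted counts in a table. Of their 3 standard counterparts PSMB7 was higher (log2 0.53, adjusted p 0.0281) and PSMB5 and PSMB6 were not called. The PSMB7 call was lost with DESeq2 (0.228), with total count scaling (0.109) and without the K562 sizes (0.0973), K562 kits (0.545) or HEK293FT (0.0692) table.

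Among 14 regulators 9 were tested, 3 higher and 3 lower in K562, with a median of 0.06. Over all genes 20.5% were called higher and 24% lower. The X box factors went both ways: RFX5 had 36.6 pooled CPM in HEK293T, 31.1 in HEK293FT, 6.92 in K562 kits and 4.22 in K562 sizes (log2 -2.22, adjusted p 5.97e-05), while RFXANK was higher in K562 (log2 0.90, adjusted p 0.0112). STAT2 (2.21) and the kinase gene JAK2 (2.48), both in interferon signalling, were higher but passed the filter only through the K562 tables, with 3 and 5 counts of STAT2 and 2 and 2 of JAK2 in the HEK tables, and the interferon gamma receptor gene IFNGR1 (-1.19) and NFKB1 (-1.20) were lower. RFX5 and NFKB1 passed only through the HEK tables. With DESeq2 none of these 6 regulators was called, at adjusted p of 0.055 for RFX5, 0.206 for RFXANK, 0.0752 for STAT2, 0.123 for JAK2, 0.153 for IFNGR1 and 0.367 for NFKB1. Without the K562 kits table RFX5 (0.143), RFXANK (0.258), IFNGR1 (0.326) and NFKB1 (0.357) were not called either. NFKB1 was also not called without the K562 sizes table (0.119) or with all libraries summed (0.0545).

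Of 3 Polycomb genes, which encode the histone H3 lysine 27 methyltransferase complex, EZH2 was higher in K562 (log2 0.88, adjusted p 0.00292), with 135 pooled CPM in HEK293T, 68.8 in HEK293FT, 158 in K562 kits and 164 in K562 sizes. SUZ12 and EED were not called (log2 0.38 and 0.49), and over all genes 20.5% were called higher. The EZH2 call was lost with DESeq2 (0.151) and without the K562 sizes (0.07), K562 kits (0.0968) or HEK293FT (0.257) table. Of 9 class I-like genes 1 could be tested: MICB, a ligand of the natural killer cell receptor NKG2D, was higher in K562 (log2 2.75, adjusted p 0.000179; 0.0792 with DESeq2), with 2 undepleted counts in each HEK table, and it passed the filter only through the K562 tables. The non-classical heavy chain genes HLA-F and HLA-G were too low to test, with 15 and 16 counts in undepleted HEK293FT, 2 and 9 in K562 kits and at most 3 in HEK293T and K562 sizes. None of 7 class II genes passed the filter.

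The genes whose pattern over the 26 libraries was most like that of B2M were EIF4A2 (Pearson r 0.922 on log2(CPM + 1)), TIMP1 (0.905) and CCT8 (0.904), compared across the 4590 genes that averaged 50 counts or more per library. For HLA-E, the heavy chain with the highest summed count, they were OTUD6B (0.853), NIP7 (0.851) and DNM2 (0.836). The libraries of a table share line, depth and preparation, so these values describe likeness only, and Spearman's rho was lower (0.799 for EIF4A2 and 0.476 for DNM2).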

How the data were processed

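Ribosome footprints were counted per coding sequence by the authors, one transcript a gene, and deposited as raw counts with a matching RPM table for each of the 4 tables. The submitters' processing notes name CASAVA 1.8, STAR and GRCh38 (hg38). How fragments matching several genes were treated is not given in the sources used here. The deposited RPM equalled count over library total (largest difference 3.6e-12), so CPM was computed from the counts. Transcript positions came from GENCODE 29, which held 97.51% of the transcripts in the same version. B2M was matched without version.

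Comparisons between groups used edgeR 4.0.16 (quasi-likelihood, TMM, filterByExpr with its minimum of 10 counts, Benjamini-Hochberg over all genes tested) in R 4.3.3. DESeq2 1.42.0 was an alternative, and others were scaling, filtering and leaving out libraries or tables. With 1 library left in a group, it was assumed to vary like the others. The fit with tables as units was tested on simulated data and recovered 77.5% of 200 genes changed 4-fold among 7576. That simulation used a fixed spread, not the one between the real tables, and changed far fewer genes than were called. It therefore does not measure the power of the real comparison. All 9 genes were named in every comparison, list genes where called or named by role, and likeness by the 3 highest correlations. The members and lists were chosen with earlier results of these data known. The leave-outs within K562 sizes and the NEBNext interaction were added after seeing the data. The replicate pairs differed by about sampling noise (chi-square per degree of freedom 1.03 to 1.20) and were separate libraries by title. In the RiboCop pair the difference did not exceed sampling noise (p 0.103), and it was kept as 2 libraries because their totals differ and no other pair of that group exists.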

Additional observations from a re-analysis of the deposited data

How the results depend on the processing

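Of 120 recounts of called members under alternatives, 108 were within 1.5 times the main count. The others were these. HEK293FT against HEK293T went from 1 to 0 with DESeq2 and without the filter on low counts, and from 0 to 1 over leave-outs. HEK293T NEBNext gave 0 to 1 over leave-outs, and K562 Ribo-Zero Plus gave 1 with DESeq2 size factors, 0 with only the libraries of both groups, and 0 to 6 over leave-outs. Without undepleted replicate 1 or 2 of K562 kits it was 0, without plain Ribo-Zero Plus 6, and without Ribo-Zero Plus with oligos and formaldehyde 5, while the share of all genes called was 1.72%, 1.57%, 35.4% and 34.8% in that order. Only TAP2 changed sign: its log2 difference with tables as units was 0.12 without the filter, 0.25 with all libraries summed, and -0.81 to 0.25 over left-out tables. The cause was not tested. HLA-B, HLA-C, B2M and TAPBP were called with tables as units under each alternative run. Of these only B2M passed the main filter on low counts through tables of both lines. HLA-B, HLA-C and TAPBP passed through 1 line alone and had to differ, so their repeated calls add no support. Replicate numbers were not taken to pair libraries, because the correlation of replicate differences was not above 0.1 in all pairs of groups. It was 0.0644 to 0.137 in HEK293T, above 0.1 in some pairs and below it in others, so pairing there is not excluded. In K562 kits it was -0.0373 to 0.034. With a replicate block, the count of members called was unchanged in 7 of 7 comparisons, for example 4 for K562 against HEK293T. Depth limits TAP1, TAPBP and ERAP1 in HEK293T, where undepleted libraries hold 0 to 5 counts of each.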
